A study of Mus musculus with 5 samples.

Results

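Called regions near microRNA genes were the Runx3-bound and H3K4me1-marked regions whose centre lay within 10 kb of the annotated start of a microRNA gene. MicroRNA genes were the 529 genes of type miRNA whose name begins with Mir in the GENCODE vM1 annotation of the mouse genome mm9. Of the 28127 called regions of both lists, 170 met this rule, namely 69 of 9135 Runx3-bound and 101 of 18992 H3K4me1-marked regions. MicroRNA genes whose starts lay within 10 kb of the next one were joined, which gave 325 clusters, and each region was assigned to its nearest microRNA start. In this annotation a microRNA gene is the hairpin, so its start is the 5′ end of the hairpin and not the start of the longer transcript that carries it.

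The regions came from ChIP-seq of splenic CD8+ T cells of wild type ICR mice, isolated on anti-CD8 beads at over 95% purity. All cells had been TCR-activated for 2 days on plate-bound anti-CD3e with soluble anti-CD28 and then kept for 4 days in 100 u/ml recombinant human IL-2, so that every group shares this treatment. The labels list 2 libraries with a polyclonal anti-Runx3 antibody, 2 with non-immune serum (NIS, the control) and 1 with an anti-H3K4me1 antibody. Reads of repeats had been joined before each list was called, and the lists hold no score or read number. The values therefore have no replicate error, the depth behind a region is unknown, and all intervals below are 95% Wilson intervals that cover counting error among regions, genes or clusters only. The cell type could not be checked against markers, since regions and not RNA levels were measured.

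MicroRNAs are short RNAs that guide Argonaute proteins to target mRNAs, mainly by the seed at their 5′ end, and lower their translation and stability. They are cut from hairpins in longer transcripts, first in the nucleus by Drosha and Dgcr8 and then in the cytoplasm by Dicer1, and many lie in introns of protein-coding or non-coding host genes or in clusters that share a transcript. In CD8+ T cells, miR-155 and miR-21 are known to rise upon activation, whereas miR-150 and the let-7 family are high in resting cells. Runx3 is a transcription factor of cytotoxic lymphocytes, and H3K4me1 is a histone mark that is abundant at enhancers.

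Sequences of 7 Runx3-bound regions are shown because they lie at the microRNA genes of lymphocytes that are described below. Each is 180 bp of the mm9 plus strand around the RUNX motif nearest to the centre of its region, and capitals mark RUNX motifs. RUNX motifs were TGTGGT and its variant TGTGGC together with the further variants TGCGGT and, in the same way, TGCGGC on either strand, so that a motif on the minus strand reads as its reverse complement.
Mir142, chr11:87572080-87572259: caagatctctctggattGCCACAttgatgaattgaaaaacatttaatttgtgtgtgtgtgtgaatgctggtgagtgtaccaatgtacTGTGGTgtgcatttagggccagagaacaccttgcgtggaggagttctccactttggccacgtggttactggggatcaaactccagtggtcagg
Mir155, chr16:84713435-84713614: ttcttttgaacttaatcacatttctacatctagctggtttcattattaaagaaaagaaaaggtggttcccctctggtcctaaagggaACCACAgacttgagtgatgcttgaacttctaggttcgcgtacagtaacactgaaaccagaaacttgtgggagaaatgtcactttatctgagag
Mir132, chr11:74987007-74987186: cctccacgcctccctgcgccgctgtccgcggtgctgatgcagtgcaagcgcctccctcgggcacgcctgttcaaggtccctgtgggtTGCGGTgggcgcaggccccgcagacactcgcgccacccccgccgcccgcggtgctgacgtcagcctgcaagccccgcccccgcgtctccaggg
Mirlet7g, chr9:106080496-106080675: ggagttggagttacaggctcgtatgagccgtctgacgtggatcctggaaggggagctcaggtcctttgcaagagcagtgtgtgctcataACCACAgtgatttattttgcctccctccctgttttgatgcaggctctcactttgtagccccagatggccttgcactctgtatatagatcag
Mir21, chr11:86401556-86401735: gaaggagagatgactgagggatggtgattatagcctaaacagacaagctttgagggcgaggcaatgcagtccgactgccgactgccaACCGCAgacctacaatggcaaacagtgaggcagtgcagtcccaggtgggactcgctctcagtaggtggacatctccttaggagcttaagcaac
Mir29b-1, chr6:31022167-31022346: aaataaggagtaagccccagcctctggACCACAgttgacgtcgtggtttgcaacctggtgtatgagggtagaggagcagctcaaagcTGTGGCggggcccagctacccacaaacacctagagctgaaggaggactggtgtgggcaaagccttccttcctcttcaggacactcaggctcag
Mir23a, chr8:86722399-86722578: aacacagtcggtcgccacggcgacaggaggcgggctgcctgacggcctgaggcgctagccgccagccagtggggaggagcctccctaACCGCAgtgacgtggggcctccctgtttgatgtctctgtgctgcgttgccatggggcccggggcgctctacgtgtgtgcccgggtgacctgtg

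By annotation, the window near Mir142 was intergenic, downstream of the hairpin, and the region around it held 4 RUNX motifs. That near Mir155 lay in an intron of the non-coding host transcript of Mir155. The window near Mir132 overlapped the Mir132 hairpin in an intron of the non-coding host 1700016P03Rik. Those near Mirlet7g and Mir21 lay in introns of Wdr82 and Vmp1, respectively, and those near Mir29b-1 and Mir23a were intergenic.

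The mature microRNAs of these loci are printed because they are products of the clusters at which these Runx3-bound regions were found, although the region at the Mir23a cluster lay within 10 kb of Mir23a alone. They were taken from RefSeq (table build GRCm38.p6), and capitals mark the seed, bases 2 to 8. The hairpins of 392 of the 529 microRNA genes, and of 55 of the 67 with a Runx3-bound region, were matched to RefSeq.
mmu-miR-155-5p: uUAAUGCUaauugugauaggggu
mmu-miR-21a-5p: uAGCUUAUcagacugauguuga
mmu-miR-132-3p: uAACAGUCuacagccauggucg
mmu-miR-212-3p: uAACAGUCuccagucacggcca
mmu-miR-23a-3p: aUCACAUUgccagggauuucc
mmu-miR-27a-3p: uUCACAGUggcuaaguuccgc
mmu-miR-24-3p: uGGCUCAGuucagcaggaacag
mmu-let-7g-5p: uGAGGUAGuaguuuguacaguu
mmu-miR-29a-3p: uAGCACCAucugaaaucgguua
mmu-miR-29b-3p: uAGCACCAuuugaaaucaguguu
mmu-miR-142a-3p: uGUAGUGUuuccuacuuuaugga

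Within this group miR-132-3p and miR-212-3p share the seed AACAGUC, and miR-29a-3p and miR-29b-3p share AGCACCA. The genes of each pair also lie in 1 cluster, and each of these clusters had 1 Runx3-bound region.

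Runx3-bound regions were found within 10 kb of 67 of the 529 microRNA genes (12.7%, interval 10.1 to 15.8%) and H3K4me1-marked regions within 10 kb of 70 (13.2%, interval 10.6 to 16.4%). Counted by cluster, 51 of 325 clusters had a Runx3-bound region (15.7%, interval 12.1 to 20.04%) and 62 had an H3K4me1-marked one (19.1%, interval 15.2 to 23.7%). Among 22380 protein-coding gene starts, 17.9% had a Runx3-bound and 21.7% an H3K4me1-marked region centred within 10 kb. The shares by cluster lay near this background, which is counted by single start. The shares by gene, counted in the same way, lay below it, and neither interval reached it. Genes of 1 cluster can share a region, so the intervals by gene may be too narrow. Both kinds of region were present at 32 clusters, Runx3-bound regions alone at 19 and H3K4me1-marked regions alone at 30. Alone refers to centres within 10 kb and does not mean unmarked. The cluster of Mir29a and Mir29b-1 is among the 19, although its Runx3-bound region lay within an H3K4me1-marked region centred beyond 10 kb. The other 244 clusters had neither.

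Of the 51 clusters with Runx3-bound regions, 38 had 1 region, 10 had 2, 2 had 3 and 1 had 5. The 13 clusters with 2 or more held 31 of the 69 regions. Another Runx3-bound region lay within 10 kb of 35 of the 69 (50.7%, interval 39.2 to 62.2%), compared to 33.5% of all Runx3-bound regions. Neighbouring regions count for each other here, so this interval may be too narrow.

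**Figure D1:**
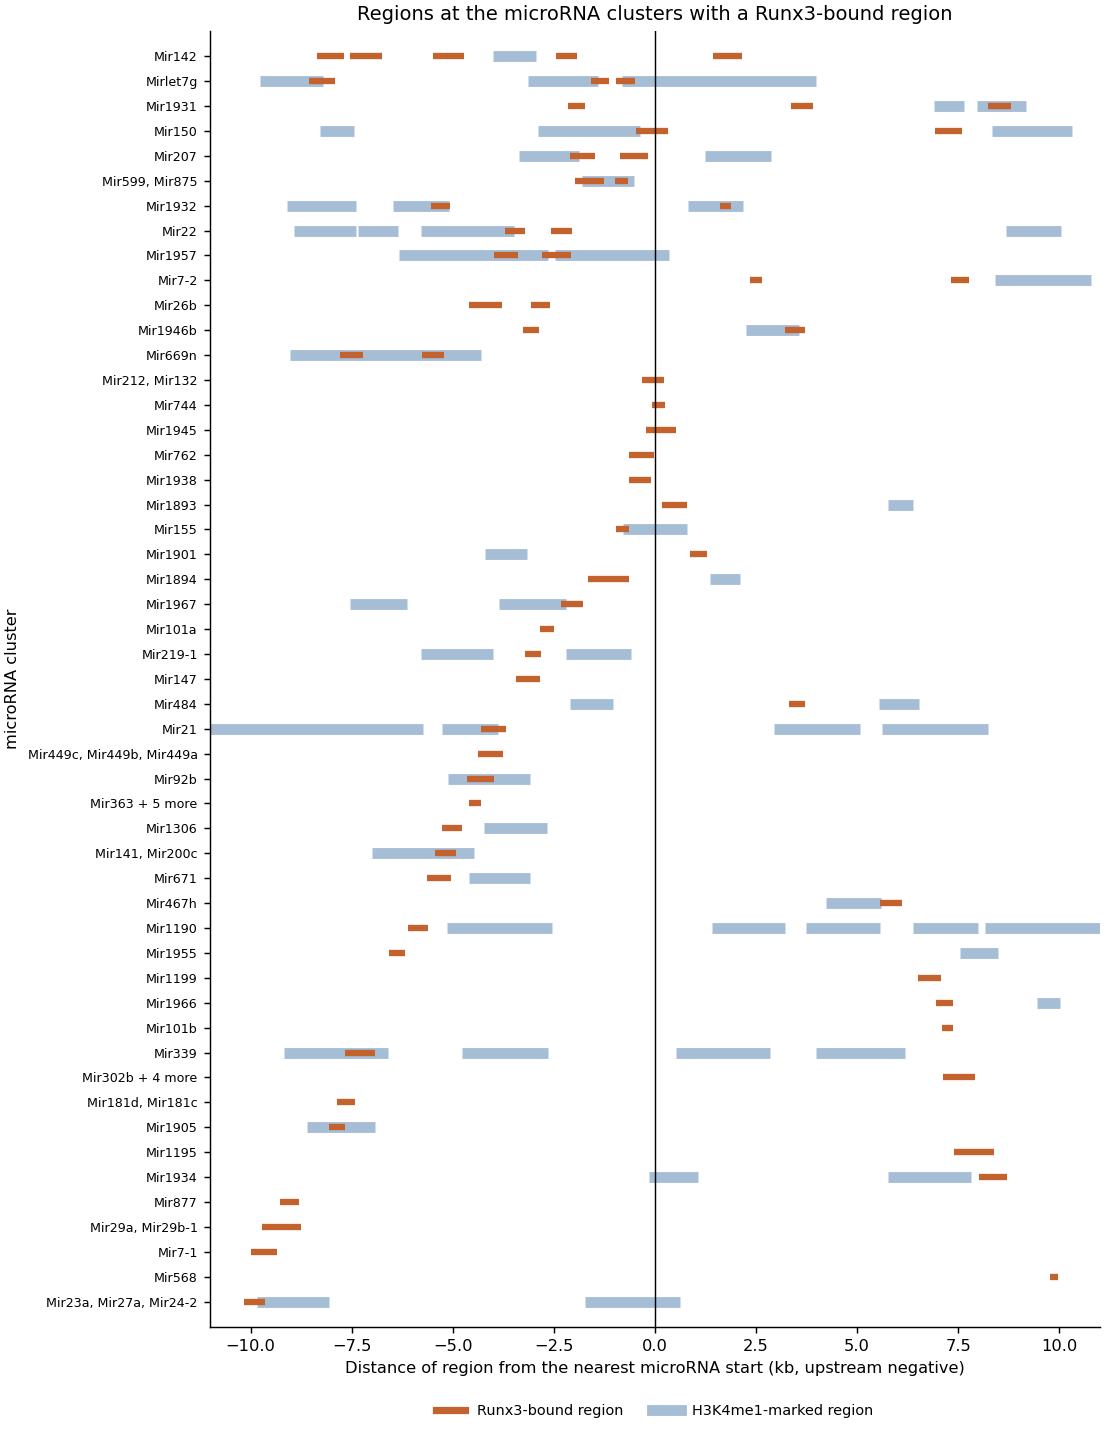
Map of the 51 microRNA clusters with a Runx3-bound region. Each line is 1 cluster, the horizontal axis is the distance from the nearest microRNA start in kb on its strand (upstream negative), and bars show the width of Runx3-bound (orange) and H3K4me1-marked (blue) regions centred within 10 kb. Clusters are ordered by their number of Runx3-bound regions, with Mir142 (5 regions) at the top, and marked regions centred beyond 10 kb, as at Mir29b-1, are not drawn.

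The number of genes in a cluster and the chromosome were compared next. Runx3-bound regions were present at 42 of 270 single microRNA genes (15.6%) and at 9 of 51 clusters of 2 to 9 genes (17.6%). The 4 clusters of 10 or more genes, which hold 124 of the 529 genes, had 0 regions of either list. These include the imprinted clusters of chromosome 12 around Meg3 and Mirg, with 12 and 31 genes. The largest of the 4, inside Sfmbt2, is made up mostly of Mir466, Mir467 and Mir669 copies. Unique alignment limits what can be called at near-identical copies, so a missing call there does not show absence. On chromosome X, 1 of 30 clusters had a Runx3-bound region and 0 of 30 had an H3K4me1-marked one (interval up to 11.4%), compared to 50 and 62 of 295 clusters on autosomes. The share over all gene starts of chromosome X was not determined, so these counts cannot be read as particular to microRNA clusters. The cluster on X was that of Mir363, Mir92-2, Mir19b-2, Mir20b, Mir18b and Mir106a, a paralogue of the Mir17 cluster. Its Runx3-bound region was 293 bp wide, was centred at -4.45 kb from Mir106a and held 2 RUNX motifs. The edge of the nearest H3K4me1-marked region lay 4252 kb from this Runx3-bound region.

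Around the microRNA start, 48 of the 69 Runx3-bound regions (69.6%, interval 57.9 to 79.2%) and 62 of the 101 H3K4me1-marked regions (61.4%, interval 51.6 to 70.3%) were centred upstream. For regions within 10 kb of a protein-coding start, the upstream shares were 49.0% and 43.2%. Within 1 kb of the microRNA start lay 11 Runx3-bound regions (15.9%) and 6 H3K4me1-marked ones (5.94%), compared to 47.7% and 10.6% of the regions within 10 kb of a protein-coding start. The median distance was 4.00 kb for Runx3-bound regions (range 0.057 to 9.91 kb) and 5.31 kb for H3K4me1-marked regions. Just inside the limit of 10 kb lay the Runx3-bound regions at Mir568 and Mir23a (9.88 and 9.91 kb), and just outside those at Mir190b and Mir671 (10.2 and 10.5 kb).

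**Figure D2:**
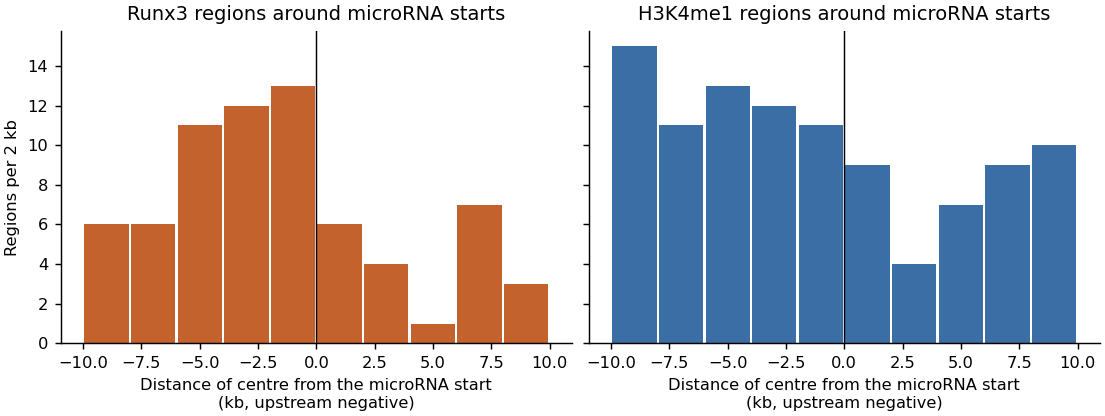
Number of Runx3-bound (left, n = 69) and H3K4me1-marked (right, n = 101) regions per 2 kb of distance from the nearest microRNA start, in kb along the strand of the microRNA. The 2 kb just upstream of the start held 13 Runx3-bound regions, the most of any bin of that list, and the 2 kb just downstream held 6.

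Distance to host and other gene starts was also measured. Of the 69 Runx3-bound regions, 32 (46.4%) were under 1 kb from the start of a transcript other than a microRNA, 16 (23.2%) were 1 to 5 kb away and 21 (30.4%) over 5 kb, compared to 26.2%, 17.01% and 56.8% of all Runx3-bound regions. By host, 32 regions lay at microRNAs inside a protein-coding gene on the same strand, 8 inside one on the opposite strand, 9 inside a non-coding gene and 20 outside any gene. A region under 1 kb from the start of a host on the same strand, coding or not, made up 17 of 41 (41.5%, interval 27.8 to 56.6%). Clusters with a Runx3-bound region were 24 of 165 with a protein-coding host on the same strand (14.5%), 6 of 24 with one on the opposite strand (25%), 5 of 30 with a non-coding host (16.7%) and 16 of 111 without a host (14.4%). These intervals overlap, as that of the 6 of 24 clusters runs from 12.0 to 44.9%. The centre was intergenic in 28 Runx3-bound regions, intronic in 30, in a UTR in 7, in a coding exon in 2 and in a non-coding exon in 2.

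To learn how many of these regions overlapped a call of H3K4me1, the lists were overlapped, which does not by itself show an enhancer. Regions of the Runx3 list that overlap the H3K4me1 list by 1 bp or more are called marked here. There were 27 marked regions among the 69 (39.1%, interval 28.5 to 50.9%), beside 57.3% in the whole Runx3 list. The distance to other gene starts moved with this share. Under 1 kb from such a start 7 of 32 were marked (21.9%, compared to 19.8% of all Runx3-bound regions in that class). At 1 to 5 kb 7 of 16 were marked (43.8%, interval 23.1 to 66.8%, compared to 65.0%), and over 5 kb 13 of 21 (61.9%, interval 40.9 to 79.2%, compared to 72.2%). In turn, Runx3 lay in 23 of the 101 H3K4me1-marked regions (22.8%, interval 15.7 to 31.9%), beside 29.2% in the whole H3K4me1 list. When the Runx3 centre had to lie inside the H3K4me1-marked region, 18 of 69 (26.1%) were marked, compared to 46.3% of all.

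**Figure D3:**
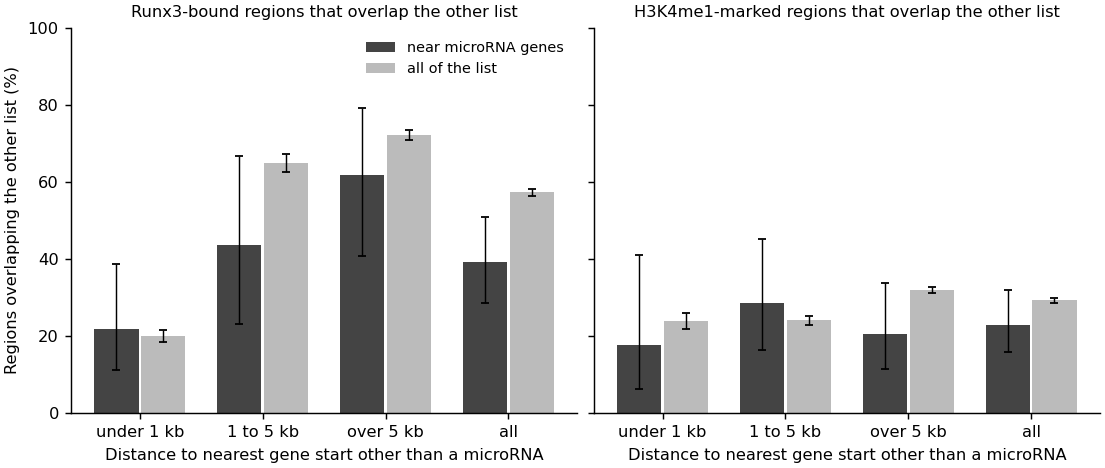
Share of Runx3-bound regions (left) and H3K4me1-marked regions (right) that overlap the other list, in %, by distance to the nearest gene start other than a microRNA. Dark bars are regions near microRNA genes, light bars all regions of the list, and error bars are 95% Wilson intervals. Both groups of Runx3-bound regions had their lowest share under 1 kb, 21.9% and 19.8%.

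For the 42 unmarked regions, the distance to the mark was measured. An H3K4me1-marked region began or ended within 1 kb of 12 of them (28.6%, interval 17.2 to 43.6%). Within 5 kb this held for 21 (50%, interval 35.5 to 64.5%). Of the 3901 unmarked regions of the whole list, the shares were 19.3% and 34.6%. The first lay within its interval and the second just below. The groups were not matched for distance to gene starts. The median gap was 5.06 kb and 16.9 kb, respectively.

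By host, the marked share was 11 of 32 for protein-coding hosts on the same strand, 5 of 8 on the opposite strand, 3 of 9 for non-coding hosts and 8 of 20 without a host. The 5 marked regions on the opposite strand lay at Mir599 and Mir875 in Vps13b, at Mir669n in the zinc transporter gene Slc30a7, and at Mir1905 in Mex3a. The region at Mir1905 was itself centred in an intron of Rab25, 0.733 kb from the Rab25 start.

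MicroRNAs were then grouped into 4 lists by what they are known for. Of 15 clusters of T cell activation and effector microRNAs, 4 had a Runx3-bound region (26.7%, interval 10.9 to 52.0%) and 6 an H3K4me1-marked one (40.0%, interval 19.8 to 64.3%). Of 27 clusters linked to resting lymphocytes and growth restraint, 7 (25.9%, interval 13.2 to 44.7%) and 4 (14.8%) did. Of 7 blood cell clusters 2 and 4 did, and of 22 clusters typical of other tissues 4 (18.2%) and 2 (9.09%). The 254 clusters in no list had 34 (13.4%) and 46 (18.1%). The share over all clusters lay within each of these intervals, except for H3K4me1 at activation clusters and at blood cell clusters (57.1%, interval 25.05 to 84.2%). At activation clusters the lower bound of 19.8% lay just above the 19.1% of all clusters. The 21.7% of protein-coding starts, counted by single start, lay within that interval. The lists were not tested against each other.

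**Figure D4:**
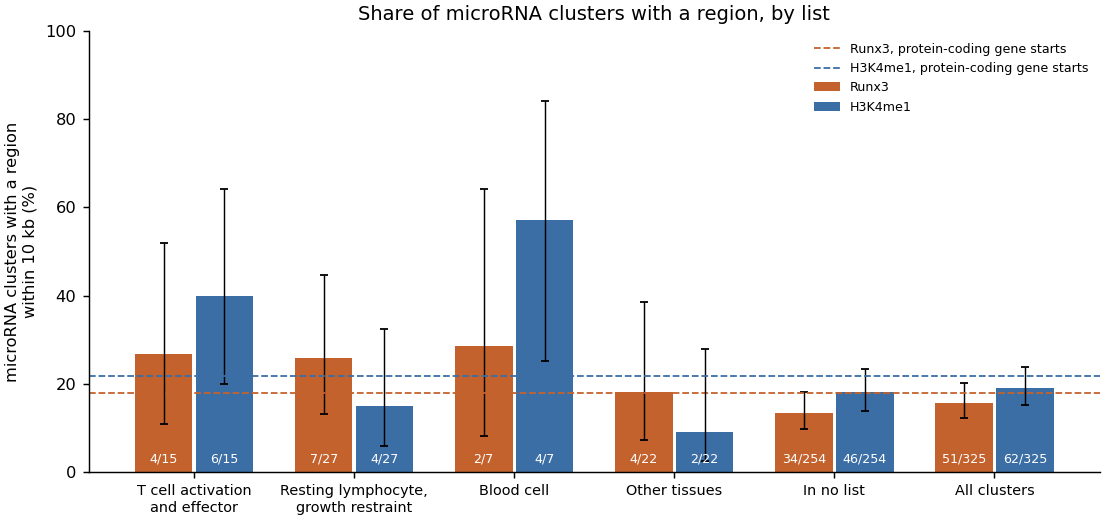
Share of microRNA clusters with a Runx3-bound (orange) or H3K4me1-marked (blue) region within 10 kb, in %, for the 4 lists, clusters in no list and all 325 clusters. Error bars are 95% Wilson intervals, numbers in the bars are clusters with a region of all clusters, and dashed lines are the shares of protein-coding gene starts (17.9% and 21.7%). The highest bar is H3K4me1 at blood cell clusters, 4 of 7.

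Among the activation microRNAs, Mir155, which supports effector responses of CD8+ T cells, had a Runx3-bound region of 332 bp at -0.808 kb. It lay 0.309 kb from the annotated start of the host transcript and shared 137 bp with an H3K4me1-marked region of 1567 bp. That region was centred 0.005 kb from the hairpin and covered it. Mir21, which is induced in activated T cells, lies in the 3′ part of Vmp1, a gene of membrane trafficking and autophagy. It had 1 Runx3-bound region (625 bp, at -4.00 kb, in a Vmp1 intron), which shared 437 bp with an H3K4me1-marked region, and 4 H3K4me1-marked regions in all, of up to 5954 bp.

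At Mir212 and Mir132, whose host transcript responds to cAMP signalling in neurons, a Runx3-bound region of 547 bp covered both hairpins, centred at -0.057 kb from Mir132. It was unmarked, with 17.8 kb to the nearest H3K4me1-marked region. The cluster of Mir23a, Mir27a and Mir24-2, known to restrain effector functions of cytotoxic T cells, had 1 marked Runx3-bound region at -9.91 kb, which is beyond 10 kb from the other 2 genes. An H3K4me1-marked region of 2352 bp covered all 3 hairpins but held no Runx3-bound region. H3K4me1-marked regions without Runx3 lay near Mir182, Mir96 and Mir183 (at -1.69 kb from Mir183), Mir210, a hypoxia-induced microRNA (at -8.80 kb), and Mir130b with Mir301b (at -8.56 kb from Mir301b).

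Among the microRNAs of resting lymphocytes, Mir150, which targets Myb in lymphocytes, had 2 Runx3-bound regions. The one at 7.26 kb was unmarked and lay 0.270 kb from the start of the ribosomal protein gene Rpl13a. Mirlet7g, a let-7 gene in an intron of Wdr82, a subunit of H3K4 methyltransferase complexes, had 3 Runx3-bound regions, all marked. They were at -8.24, -1.36 and -0.735 kb, and the first lay 0.330 kb from the Wdr82 start. The H3K4me1-marked regions were 1562, 1728 and 4813 bp wide, and the widest covered the let-7g hairpin.

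Mir29a and Mir29b-1, whose mature microRNAs target T-bet, Eomes and interferon-gamma mRNAs in T cells, had 1 marked Runx3-bound region of 965 bp at -9.25 kb from Mir29b-1, all of it within an H3K4me1-marked region. Mir26b, in an intron of the phosphatase gene Ctdsp1, had 2 unmarked regions at -4.19 and -2.83 kb, the latter 0.027 kb from the Ctdsp1 start. Mir181c and Mir181d, of the family that sets T cell receptor sensitivity in thymocytes, had 1 unmarked region at -7.64 kb from Mir181c. Mir101a and Mir101b each had 1 unmarked region, at -2.67 kb and 7.24 kb. Marked regions without Runx3 lay at Mirlet7i (2, at -2.05 and 2.05 kb) and at Mir342 in Evl, where 1 region of 7326 bp at -4.59 kb was the widest of the 101.

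Among blood cell microRNAs, Mir142, which is expressed throughout the haematopoietic lineages, had 5 Runx3-bound regions, the most of any cluster. They were centred at -8.03, -7.15, -5.11, -2.18 and 1.80 kb and were 671, 809, 768, 512 and 714 bp wide. Of these, the region at -8.03 kb shared 13 bp with an H3K4me1-marked region centred 10.02 kb from the start, just outside the limit, and the other 4 were unmarked. The H3K4me1-marked region within 10 kb (1070 bp, at -3.47 kb) lay between Runx3-bound regions, with gaps of 0.724 and 0.491 kb to its neighbours. Mir339 had 1 marked Runx3-bound region at -7.29 kb and 4 H3K4me1-marked regions. Mir425 had 3 H3K4me1-marked regions, of which 1 covered the hairpin, and the erythroid pair Mir144 and Mir451 had 1, at 7.84 kb from Mir451. These had 0 Runx3-bound regions within 10 kb.

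The last list holds microRNAs whose main known expression is in other tissues. The cluster of Mir302b and Mir367, typical of pluripotent cells, had 1 unmarked region at 7.52 kb, which lay 0.099 kb from the start of Larp7, the gene on the opposite strand. Mir141 and Mir200c, typical of epithelia, had 1 marked region at -5.18 kb that lay in an intron of Ptpn6, which encodes the lymphocyte phosphatase SHP-1. Mir7-1, in the RNA-binding protein gene Hnrnpk, had 1 unmarked region with its centre 45 bp from the Hnrnpk start and 39 bp from the start of Rmi1. Mir7-2 had 2 unmarked regions at 2.50 and 7.54 kb, the latter 0.036 kb from the start of Aen. At 3 of these 4 clusters a Runx3-bound region thus lay at the start of a protein-coding gene. This is not particular to the list, as Mir26b, Mirlet7g and Mir150 also had such a region. Of all 69 Runx3-bound regions near microRNA genes, 32 (46.4%) were under 1 kb from the start of a transcript other than a microRNA. Whether any region acts on the microRNA was not tested.

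Several known microRNAs of lymphocytes and myeloid cells had 0 regions of either list within 10 kb. A missing call does not show that Runx3 or the mark is absent, since calling depends on depth and background. The study reported fewer uniquely aligned reads for these cells than for resting CD8+ T cells, but more Runx3-bound regions. It ascribed some missing peaks in the resting cells to higher background. At Mir17, the first gene of the cluster that promotes lymphocyte growth, the nearest Runx3-bound region was centred at -97139 bp. At Mir146, a restraint of NF-κB signalling, the nearest Runx3-bound and H3K4me1-marked regions lay at 11803 and -11894 bp, outside the limit. The nearest were at -159539 and -159607 bp for Mir181a-1, and at -112455 and -110796 bp for the myeloid Mir223.

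Further regions centred within 1 kb of a microRNA start lay at Mir744 (0.086 kb, over the hairpin, in the kinase gene Map2k4), Mir1945 (0.153 kb, over the hairpin, 0.022 kb from the start of the translation termination factor gene Gspt1), Mir762 (-0.330 kb), Mir1938 (-0.374 kb, over the start of Ifrd1), Mir1893 (0.480 kb, in Epc1), Mir207 (-0.513 kb, 76 bp from the start of the co-chaperone gene Dnaja1) and Mir875 (-0.822 kb). Of these 7, the region at Mir875 alone was marked. A hairpin was overlapped by 4 Runx3-bound regions, among them those at Mir132 with Mir212, Mir744 and Mir1945, and by 7 H3K4me1-marked regions.

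The other clusters with 2 or more Runx3-bound regions were in no list. Mir1931, in the kinase gene Cdk17, had 3, at -1.94, 3.64 and 8.52 kb, and the last was marked. Mir22 had 2, at -3.46 (marked) and -2.31 kb. Mir1957, in the glucose transporter gene Slc2a1, had 2 marked regions at -3.69 and -2.44 kb, and Mir669n had 2 marked regions at -7.51 and -5.49 kb within 1 H3K4me1-marked region of 4733 bp. Mir1932 (-5.30 and 1.74 kb) and the pair Mir599 and Mir875 (-1.62 and -0.822 kb from Mir875) also had 2 marked regions each. At Mir207 (-1.80 and -0.513 kb) and Mir1946b (-3.07 and 3.47 kb) 1 of 2 was marked. The region at -3.07 kb from Mir1946b lay 0.381 kb from a start of Smarca4, a chromatin remodelling ATPase.

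The sequence of the 69 Runx3-bound regions was searched for motifs. A RUNX motif was found in the central 200 bp of 54 (78.3%, interval 67.2 to 86.4%), compared to 78.8% of all Runx3-bound regions, and in the whole of 68 (98.6%, compared to 92.6%). The region without one was that at Mir181c. In the central 200 bp of the 101 H3K4me1-marked regions the share was 37.6%, and over all H3K4me1-marked regions it was 37.3%. An ETS motif, which was AGGAAA or its variant AGGAAG or one of the further variants CGGAAA and, in the same way, CGGAAG on either strand, was found in the central 200 bp of 46 Runx3-bound regions (66.7%, interval 54.9 to 76.6%), compared to 66.2% of all. Both shares were thus near the background. Marked and unmarked regions held a RUNX motif in 22 of 27 and 32 of 42 cases (81.5% and 76.2%), compared to 81.0% and 75.8% of all marked and unmarked Runx3-bound regions. They held an ETS motif in 20 of 27 and 26 of 42 (74.1% and 61.9%), compared to 68.4% and 63.2% of all, so these shares lay near the background as well.

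The variants of the RUNX motif were then counted singly. TGTGGT was found in 27 of 69 (39.1%, interval 28.5 to 50.9%), compared to 54.3% of all, and TGTGGC in 12 (17.4%, interval 10.2 to 28.0%, compared to 26.8%). TGCGGT was found in 17 (24.6%, interval 15.99 to 35.96%), compared to 13.6%, and TGCGGC in 13 (18.8%, interval 11.4 to 29.6%), compared to 8.39%. The share over all regions lay outside the interval for each variant except TGTGGC, and no test was run. By distance to gene starts, the variants did not keep 1 order. Under 1 kb from a start, TGTGGT was found in 8 of 32 (25%, compared to 30.5% of all regions in that class), TGCGGT in 9 (28.1%, compared to 23.7%) and TGCGGC in 10 (31.3%, interval 17.95 to 48.6%, compared to 20%). At 1 to 5 kb, TGTGGT was found in 9 of 16 (56.3%, interval 33.2 to 76.9%, compared to 60.6%), TGCGGT in 6 (37.5%, interval 18.5 to 61.4%, compared to 11.1%) and TGCGGC in 0 (interval up to 19.4%, compared to 4.38%). Over 5 kb, TGTGGT was found in 10 of 21 (47.6%, interval 28.3 to 67.6%, compared to 63.4%), TGCGGT in 2 (9.52%, compared to 9.75%) and TGCGGC in 3 (14.3%, interval 4.98 to 34.6%, compared to 4.24%). GC content of the central window had a median of 54.5% near microRNA genes and 50.5% in the whole list. In the class under 1 kb the medians were 61.3% and 60%. The median width was 547 bp (range 191 to 1022 bp), compared to 521 bp, and that of H3K4me1-marked regions was 1602 bp, compared to 1592 bp.

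Genes that make and use microRNAs were examined as the remaining part of the pathway. Of 20 such genes, 7 had a Runx3-bound region centred within 10 kb of their start (10 regions) and 7 an H3K4me1-marked one (8 regions), that is 35.0% for each list beside 17.9% and 21.7% of all protein-coding starts. With 20 genes these shares are imprecise, no interval was computed for them, and the difference was not tested. For the nuclear step, Dgcr8 had a Runx3-bound region at -0.10 kb, and Ddx5, a helicase that works with Drosha, had 2, at 0.34 and 9.61 kb. The region at the Dgcr8 start is the same one that was counted for Mir1306, a microRNA inside Dgcr8, at -5.03 kb. Drosha had 0 of either list. Among Argonaute genes, Eif2c2 (Ago2, the slicing Argonaute) had 2, at 2.27 and 8.90 kb, of which the latter was marked, and Eif2c3 had 1 at -0.36 kb. Tnrc6a and Tnrc6c, scaffolds of the silencing complex, had 1 each, at -0.22 and 0.29 kb. Zcchc11, which uridylates let-7 precursors, had 2, at -0.05 and 1.41 kb. Dicer1 had an H3K4me1-marked region at 1.42 kb and 0 Runx3-bound regions, and Lin28a and Lin28b, which block let-7 processing, had 0 of both.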

How the data were processed

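ChIP-seq of Runx3, H3K4me1 and NIS was analysed from the positions (start and end in bp) of called peaks that the authors deposited, in 2 lists with 0 score columns. Per the labels and the study's methods, reads were aligned to mm9 with ELAND, uniquely aligned reads were kept, repeats were joined and peaks were called with MACS against NIS, with the larger read set scaled to the smaller. Joining hides the spread between repeats, and unique alignment limits what can be called at near-identical microRNA copies. The labels list 1 H3K4me1 library but speak of replicates for both antibodies.

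Distances were measured from region centres to gene starts of GENCODE vM1 on NCBIM37, which is mm9 (0 regions ran past a chromosome end, coordinates are counted from 1). Starts of 93918 transcripts other than microRNAs gave the distance classes. A host is a gene other than a microRNA that contains the hairpin. Where several did, genes on the same strand were preferred, then protein-coding ones, and then the shortest. Overlap was at least 1 bp. Members, lists and tests were chosen with earlier results of these data known. Regions were named for clusters with 2 or more Runx3-bound regions, for starts within 1 kb and for the 4 lists. Mir17, Mir146, Mir181a-1, Mir223, Mir1306, Mir1905 and the large, X-linked and limit-case clusters were named after their values were seen. The sequence and position of 1 region are not reported here. No test was run, because each list is 1 pooled call. SciPy 1.17.1, pandas 2.3.3 and NumPy 2.4.6 under Python 3.11.15 were used, with matplotlib 3.10.9 for plots, and the functions were tested on simulated data. Alternatives changed the distance, the genes, the overlap, the motif window and the joining of clusters.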

Additional observations from a re-analysis of the deposited data

How the results depend on the processing

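Of 30 values under alternatives, 13 stayed near the reported ones, that is within 1.5 times for a count and within its 95% interval for a share. With a limit of 5 kb there were 39 Runx3-bound and 49 H3K4me1-marked regions, at 35 and 40 microRNA genes. With 20 kb there were 116 and 204 regions, at 100 and 110 genes. With all 1577 genes of type miRNA there were 198 and 339 regions, at 187 and 207 genes. The share of Runx3-bound regions overlapping H3K4me1 ranged from 38.5 to 47.4% under these limits and gene sets. It was 26.1% when the centre had to lie inside or 50% had to be covered (all regions 46.3%), and that of H3K4me1-marked regions holding Runx3 was 14.9% under both (all regions 21.1 and 23.1%). The RUNX motif share was 98.6% in whole regions and 55.1% in the central 100 bp (all regions 92.6 and 54.3%). These changes follow from how the alternatives are built. No paired analysis was possible because repeats were joined before calling, and for the same reason no repeat could be left out.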
